A study of Mus musculus with 2 samples.

Results

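The genes described here encode molecular chaperones and folding enzymes of the cytosol and the endoplasmic reticulum (ER), with the Sec61 channel and the stress transcription factors Ddit3 and Atf4. They were taken by name from the platform annotation: the Hspa, Hspb, Hspd, Hspe, Hsph, Hsp90, Dnaj, Pdia, Cct, Fkbp and Sec61 families, with Calr, Canx, Tcp1, Ddit3 and Atf4. Of 4331 genes measured, 62 met the rule, through 67 probes, and 5 of them had more than 1 probe. By textbook location 15 belong to the ER, 40 to the cytosol or nucleus, 4 to mitochondria, 2 are the transcription factors and 1, Fkbp8, sits on membranes and was left unassigned (-0.06 on array 1 and 0.05 on array 2). All 62 are covered below, by name or within a count.

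Splenic T cells of the CD4+ alpha beta type, from wildtype mice and from LatY136F mice, gave total RNA that was compared on 2 two-colour arrays with the dyes reversed. LatY136F replaces a tyrosine of Lat, the adaptor that links the T cell receptor to its downstream signals. Cells were taken from spleen with anti-CD4 beads and flow sorting, and the sources used here give no age, sex, number of animals or pooling. Both arrays were taken as 1 biological comparison, so no gene has a p-value and the spread between arrays may be technical only. Signal intensities were not analysed here, so levels, and thereby the presence of a cell type, cannot be judged from these ratios. Fewer cells of a type and less RNA per cell cannot be told apart.

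Values are log2 ratios of LatY136F over wildtype, with each array centred on its median. A figure after ± is 0.5 times the difference between the arrays. The direction is likely, not settled: channel 2 was read over channel 1 and array 2 was turned. The basis is 4 genes of the T helper 2 type, which LatY136F T cells are known to express. Gata3 stood at 2.95 on array 1 and 2.91 on array 2, Il13 at 3.67 and 3.12 and Il17rb at 2.15 and 2.23, while Il4 gave 1.41 and -0.97 and so no direction. Should the reading be wrong, each sign below turns. The fold values assume that the deposited ratios are log10.

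Chaperones bind unfolded protein and prevent its aggregation. In the cytosol the Hsp70 and Hsp90 machines, their J-protein partners and the ring-shaped CCT chaperonin fold newly made protein, and heat shock factors induce many of their genes. Proteins bound for the surface or for secretion enter the ER through Sec61. There they are folded by BiP (Hspa5), the lectins calnexin and calreticulin and the disulphide isomerases, whose genes are induced by the unfolded protein response through ATF6 and XBP1. That response is best known in immune tissue from antibody-secreting plasma cells, and activated T cells that secrete cytokines use it too.

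A known response element of that pathway, the ER stress element, was looked for upstream of the members, because it marks genes that can be induced together. It was searched as CCAAT, any 9 bases, then CCACG, on both strands of the RefSeq windows (GRCm38.p6) that run from 250 bases before the start site to 50 after it. A window was given for 57 of the 62 members. The exact element stood in 5 of 14 ER members (35.7%), in 0 of 37 cytosolic members and in 0.137% of the 27025 genes in the table. With the last base free it stood in 7 of 14 ER members, 0 of the 43 other members and 0.429% of these 27025 genes. Among the measured genes with a window the shares were 0.205% (exact) and 0.555% (last base free). The element was already known from the pathway that induces ER chaperone genes. Matches in such genes were thus foreseeable, and the counts are a description and no test. The 250 bases upstream of the start are printed for 4 of the 7 ER members with a match, in lower case with the element in capitals. They lie at chr2:34771840-34772089, plus strand (Hspa5), chr8:84846932-84847181, minus strand (Calr), chr10:86705445-86705694, minus strand (Hsp90b1) and chr2:121413652-121413901, plus strand (Pdia3), and each reads 5′ to 3′ along the gene. In Calr and in the copy nearer the start of Hsp90b1 the element reads on the opposite strand, so the capitals begin with CGTGG. The match in Pdia3 is not exact: its last base differs and stands in lower case. The choice of 4 takes in the highest mean ratios of the 7, of Pdia3, Calr and Hspa5, and leaves out the lowest, of Dnajc3.
Hspa5: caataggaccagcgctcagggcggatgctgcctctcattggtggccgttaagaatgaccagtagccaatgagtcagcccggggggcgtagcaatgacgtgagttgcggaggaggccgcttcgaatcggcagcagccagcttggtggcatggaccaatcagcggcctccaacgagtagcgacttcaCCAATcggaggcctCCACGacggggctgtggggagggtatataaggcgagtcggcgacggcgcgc
Calr: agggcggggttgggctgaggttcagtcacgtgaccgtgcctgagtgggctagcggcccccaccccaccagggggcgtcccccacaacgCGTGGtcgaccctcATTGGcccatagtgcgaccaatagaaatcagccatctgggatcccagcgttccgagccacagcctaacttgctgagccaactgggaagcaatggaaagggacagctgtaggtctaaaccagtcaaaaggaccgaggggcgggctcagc
Hsp90b1: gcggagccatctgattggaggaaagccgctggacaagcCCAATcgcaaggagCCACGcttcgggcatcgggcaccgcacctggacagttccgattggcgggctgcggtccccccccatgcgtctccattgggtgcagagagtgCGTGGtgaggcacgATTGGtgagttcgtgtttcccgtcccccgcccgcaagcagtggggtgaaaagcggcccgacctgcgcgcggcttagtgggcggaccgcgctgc
Pdia3: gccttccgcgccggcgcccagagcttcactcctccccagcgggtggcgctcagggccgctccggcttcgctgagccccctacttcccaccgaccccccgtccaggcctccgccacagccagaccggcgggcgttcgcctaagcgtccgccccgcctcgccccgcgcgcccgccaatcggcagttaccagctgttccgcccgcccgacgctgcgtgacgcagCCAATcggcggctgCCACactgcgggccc

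The other 3 ER members with the element carry 1 copy each, as do Hspa5, Calr and Pdia3. For Canx, Dnajc3 and Pdia4 only its 19 bases are shown, along the gene. Those of Canx and Dnajc3 are exact, and that of Pdia4 lies on the opposite strand with its last base different.
Canx: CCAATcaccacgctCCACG
Dnajc3: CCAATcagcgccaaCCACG
Pdia4: aGTGGcagcccgtgATTGG

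The 8 elements lay between 11 and 212 bases upstream of the start, with that of Pdia3 nearest and the outer copy of Hsp90b1 farthest. A match describes letters and is not a site of binding.

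**Figure D1:**
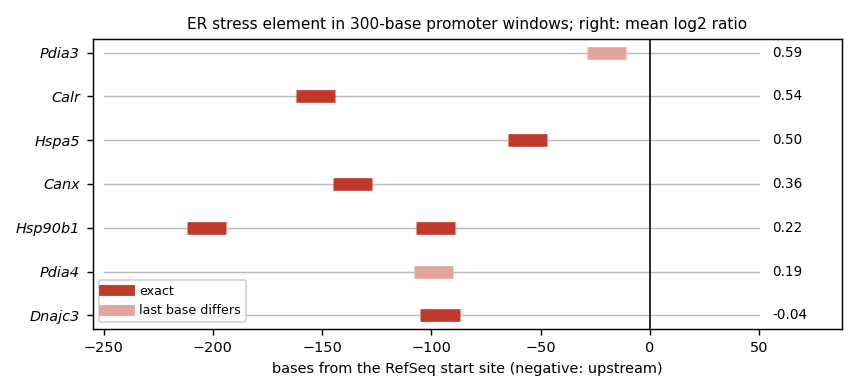
Place of the ER stress element (bars) in the windows of 7 ER members, in bases from the RefSeq start site, with each gene's mean log2 ratio at the right. Hsp90b1 has 2 copies, and the genes with an element range from 0.59 (Pdia3) to -0.04 (Dnajc3).

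The heat shock element was searched as GAA and TTC in turn, 3 units with 2 free bases between them. It stood in 2 of 37 cytosolic members, Hsph1 and Dnajb6, and in 0 of 14 ER members. Among mitochondrial members 2 of 3 held it, Hspd1 and Hspe1. The share was 0.662% of the 27025 genes with a window and 0.438% of the measured ones. Hspd1 and Hspe1, the subunits of the mitochondrial chaperonin, lie head to head, and a window of each shares 285 bases with the other. The 250 bases before the Hspe1 start (chr1:55087898-55088147, plus strand) are shown, with the units in capitals, because the same units lie upstream of both genes, which differed in their ratios.
Hspe1: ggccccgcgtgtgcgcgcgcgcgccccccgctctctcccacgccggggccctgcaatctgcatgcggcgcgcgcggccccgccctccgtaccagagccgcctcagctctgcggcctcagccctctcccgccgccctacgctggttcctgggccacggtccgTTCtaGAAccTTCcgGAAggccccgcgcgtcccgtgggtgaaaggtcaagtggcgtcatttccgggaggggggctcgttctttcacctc

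The CARE core bound by ATF4 (TGATG, any base, AA) stood in 1 member, Hspa14. Its share was 4.51% of the 27025 genes with a window and 2.83% of the measured ones. The element TGACGTGG, unlike the ER stress element, stood in 0 of 14 ER members. It stood in 1 of 37 cytosolic members, Fkbp1b, in 0.714% of the 27025 genes and in 1.23% of the measured ones.

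ER members had higher ratios than cytosolic members on both arrays. Their median was 0.31 on array 1 and 0.48 on array 2, against -0.09 and -0.04 for the 40 cytosolic members and 0.03 and 0.02 for all genes. For the mean of both arrays the ER median was 0.36, the cytosolic median -0.01 and their difference 0.37; it was 0.40 on array 1 and 0.51 on array 2. Of 15 ER members, 9 (60.0%) were above 0 on both arrays and 1 (6.67%) below 0 on both, where all genes gave 30.3% and 25.5%. The cytosolic members gave 9 of 40 above 0 on both (22.5%) and 17 below (42.5%).

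The compartments overlapped: ER members ranged from -0.30 to 0.93 and cytosolic members from -1.07 to 0.66, and 5 cytosolic members lay above the ER median. With 1 biological comparison the difference has no test, and genes are not replicates.

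Ratios of single members were small, with means between -1.07 and 0.93. Of the 62, 3 (4.84%) reached 1.5-fold higher on each array, below the 7.83% of all genes, and 0 were at least 1.5-fold lower on both, where all genes gave 2.93%. No member was 2-fold apart on both arrays in either direction, against 4.20% higher and 0.970% lower of all genes. In a set of 62 genes these counts are little apart from the background. The 3 members called were Fkbp2 of the ER and Dnajb6 and Fkbp1b of the cytosol. The arrays also differed less for the members than for genes at large, with a median of 0.09 for 0.5 times the difference (all genes 0.15).

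**Figure D2:**
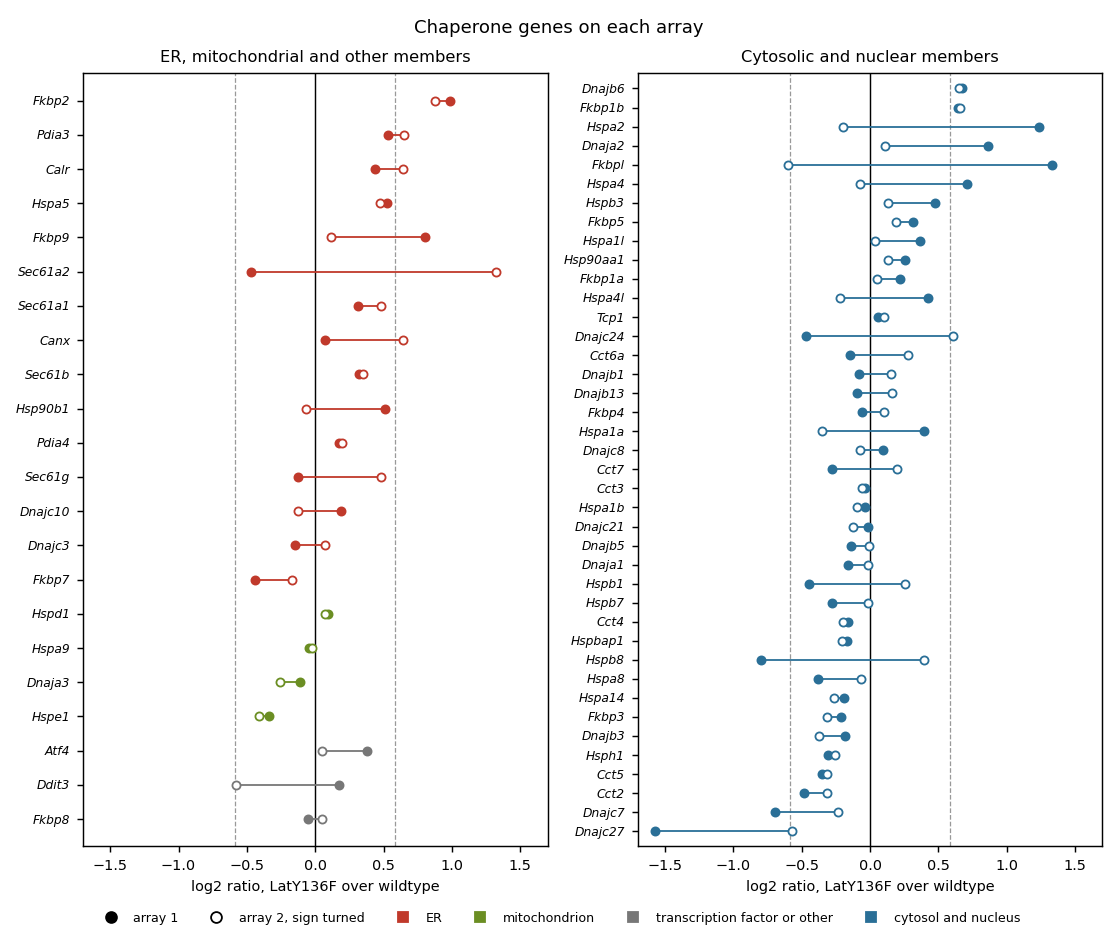
Log2 ratio of LatY136F over wildtype for each of the 62 members on array 1 (filled) and array 2 (open), ordered by mean within compartments; dashed lines mark 1.5-fold. Of the 15 ER members, 9 lie right of 0 on both arrays. Fkbp2 alone of them passes 1.5-fold on both, and others pass it on 1 array only. The 3 called members are Fkbp2, Dnajb6 and Fkbp1b.

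Among the ER chaperones proper, Hspa5, the Hsp70 of the ER lumen that also holds the stress sensors inactive, gave 0.53 and 0.48 on arrays 1 and 2 (1.42-fold, 0.50 ± 0.02). Calr, the calcium-binding lectin calreticulin that folds glycoproteins, gave 0.44 and 0.64 (1.45-fold, 0.54 ± 0.10). Both values of each gene were above 0, and for Hspa5 neither array reached 1.5-fold. Canx, the membrane-bound partner calnexin, gave 0.07 and 0.64, a mean of 0.36 ± 0.28 that rests mainly on array 2. Its probes gave -0.20 and 0.78, and 0.34 and 0.50. Hsp90b1, the ER Hsp90 (gp96) that folds integrins and Toll-like receptors, has probes that disagree by 1.45. The first gave 0.14 and -1.14 and the second 0.89 and 1.01, so the gene's mean of 0.22 ± 0.29 describes neither. By the second probe alone Hsp90b1 would have passed 1.5-fold on each array.

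Of the disulphide isomerases, Pdia3, the partner of calnexin and calreticulin, gave 0.53 and 0.65 (0.59 ± 0.06), just short of 1.5-fold on array 1. Pdia4, another isomerase of the lumen, gave 0.18 and 0.20. P4hb, the founding disulphide isomerase, whose symbol lies outside the family prefix, gave 0.88 and 1.05, past 1.5-fold on each array. These 3 isomerases were above 0 on both arrays, with P4hb furthest of the 3. Txndc5, a disulphide isomerase also outside the prefix, gave 1.02 on each array and is taken up again below.

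The Sec61 channel imports nascent proteins. Its pore subunit Sec61a1 gave 0.31 and 0.48 and the small subunit Sec61b 0.32 and 0.35, close together on both arrays. Sec61g gave -0.13 and 0.48, and Sec61a2, the second pore gene, -0.47 and 1.32. The last 2 have opposite signs on the arrays and thus no direction here.

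The prolyl isomerases of the ER differed among themselves. Fkbp2 gave 0.99 and 0.88 (1.91-fold, 0.93 ± 0.05), the highest mean of all 62 members, and its probes were alike at 0.86 and 1.00. Fkbp9 gave 0.80 and 0.12, and Fkbp7 gave -0.44 and -0.17, the lowest of the ER members. The ER J proteins lay near 0: Dnajc3, which restrains the kinase PERK during ER stress, gave -0.15 and 0.07. Dnajc10, a disulphide reductase, gave 0.19 and -0.13. Neither had the same sign on both arrays.

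The 7 ER members with the ER stress element had medians of 0.44 on array 1 and 0.48 on array 2. The 8 without it, counting Sec61a1 for which no window was given, had 0.25 and 0.41. For the mean of both arrays the medians were 0.36 and 0.37, so their order depends on the summary; 5 of 7 and 4 of 8 were above 0 on both arrays. Outside the members, 12 measured genes carried the element with its last base free. Their ratios ran from -0.90 for Lipa, a lysosomal lipase, to 4.54 for the cytokine Il6, with a median of 0.12. Herpud1, an ER degradation gene among them, stood at -0.30 ± 0.20 and Selenok, an ER selenoprotein, at 0.49 ± 0.14.

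**Figure D3:**
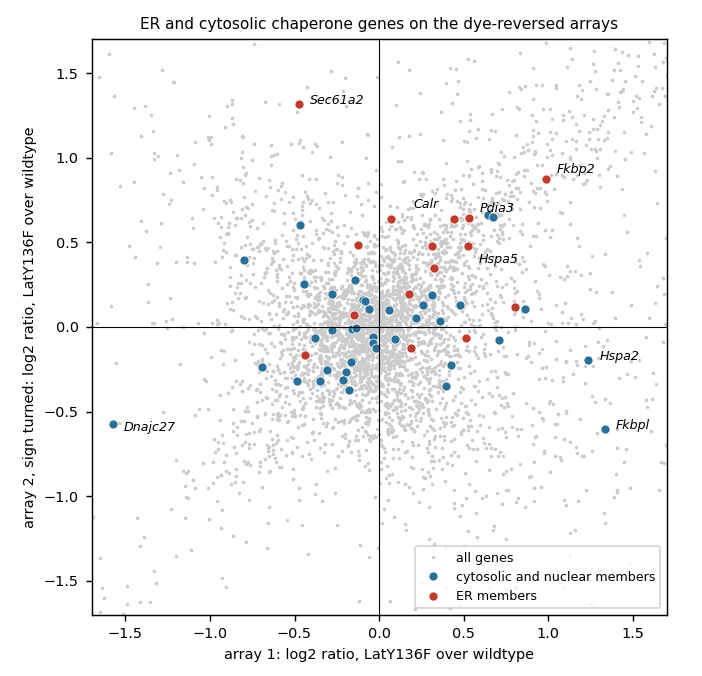
Array 1 against array 2 (sign turned), log2 ratio of LatY136F over wildtype; grey points are all genes within 1.7 of 0 (222 lie outside), red points the 15 ER members and blue points the 40 cytosolic and nuclear members. Of the ER members 9 lie above 0 on both axes and 1, Fkbp7, below 0 on both, while 17 cytosolic members lie below 0 on both.

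In the cytosol, the constitutive Hsp70 gene Hspa8 gave -0.38 and -0.06. Of the stress-inducible Hsp70 genes, Hspa1b gave -0.04 and -0.10 and Hspa1a 0.40 and -0.35; these are near-identical neighbours, so their probes may share RNA. Hsph1, the Hsp110 exchange factor and also heat-inducible, gave -0.31 and -0.26. No inducible Hsp70 or Hsp110 gene was thus above 0 on both arrays. Hspa14, a ribosome-associated Hsp70, gave -0.19 and -0.26, and Hspa1l 0.36 and 0.04. Hspa2 gave 1.24 and -0.19, Hspa4l 0.43 and -0.22 and Hspa4 0.71 and -0.08; each had opposite signs on the arrays. The 9 genes of this class had a median of 0.02. Hsp90aa1, the inducible cytosolic Hsp90 and the only one measured, gave 0.26 and 0.13.

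The CCT chaperonin, which folds actin and tubulin, had 7 of its subunits measured. Cct2 gave -0.48 and -0.32, Cct5 -0.35 and -0.32, Cct4 -0.16 and -0.20 and Cct3 -0.04 and -0.06. These 4 were below 0 on both arrays, by at most 1.32-fold on the mean. Tcp1 gave 0.06 and 0.10, while Cct6a (-0.14 and 0.27) and Cct7 (-0.28 and 0.20) had opposite signs. The class median was -0.05, although its proteins work as 1 complex.

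J proteins select clients for Hsp70. Dnajb6, which suppresses protein aggregation, gave 0.67 and 0.65 (1.58-fold, 0.66 ± 0.01), and the heat-inducible Dnajb1 gave -0.08 and 0.15. Dnaja1 gave -0.16 and -0.01 and Dnaja2 0.86 and 0.11. Dnajc27, a small GTPase with a J domain, gave -1.58 and -0.57, a mean of -1.07 ± 0.50 that was the lowest of all members. Its array 2 value fell just short of 1.5-fold, and it passed when the arrays were not centred. Dnajc7, a co-chaperone of Hsp70 and Hsp90, gave -0.69 and -0.23. The other 6 J proteins of the cytosol and nucleus (Dnajb3, Dnajb5, Dnajb13, Dnajc8, Dnajc21 and Dnajc24) had means between -0.28 and 0.07.

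Among the cytosolic prolyl isomerases, Fkbp1a, the target of the immunosuppressants FK506 and rapamycin, gave 0.22 and 0.05. Its relative Fkbp1b, which binds calcium release channels, gave 0.64 and 0.66 (1.57-fold, 0.65 ± 0.01). The Hsp90 co-chaperone Fkbp4 gave -0.06 and 0.10 and Fkbp5, a target of glucocorticoid signalling, 0.31 and 0.19. Only Fkbp1b of these reached 1.5-fold. Fkbpl gave 1.33 and -0.60, the widest gap between the arrays of any member, and the nuclear Fkbp3 -0.21 and -0.32. The 5 small heat shock genes, counted with the associated Hspbap1, lay between -0.20 and 0.30, with Hspb1 (-0.44 and 0.25) and Hspb8 (-0.80 and 0.40) of opposite signs, Hspb7 and Hspbap1 below 0 and Hspb3 above 0 on both arrays.

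The mitochondrial members did not share the ER ratios: their median was -0.11. Hspe1 gave -0.34 and -0.41, Dnaja3 -0.11 and -0.26, Hspa9, the mitochondrial Hsp70 mortalin, -0.05 and -0.02, and Hspd1 0.09 and 0.07. Hspe1 and Hspd1, whose shared upstream sequence is printed above, were thus on different sides of 0 on both arrays.

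Of the stress transcription factors, Atf4, the factor translated when eIF2 is phosphorylated, gave 0.38 and 0.05. Ddit3 (CHOP), the pro-apoptotic factor downstream of it, gave 0.18 and -0.58 and has no direction. The 11 other measured genes of the integrated stress response had a median of 0.19, with 2 called higher (18.2%, all genes 7.83%) and 0 lower (all genes 2.93%). In a list this short such a share rests on single genes. These were Asns, asparagine synthetase, at 3.29 and 3.31 (9.84-fold), and Psat1, an enzyme of serine synthesis, at 1.24 and 1.15 (2.29-fold). Phgdh, the first enzyme of serine synthesis, stood at 0.55 on each array, while Atf3 gave 0.50 and -1.30. Asns and Psat1 were thus further from 0 on each array than Atf4 and Ddit3.

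Genes of the same pathways outside the naming rule were set beside the members. ER folding, glycan processing and degradation genes (19 measured) had a median of 0.39, with 13 above 0 on both arrays and 3 called higher (15.8%, all genes 7.83%). These were Txndc5, a disulphide isomerase, at 1.02 ± 0.002, P4hb at 0.96 ± 0.08, and Mogs, which trims the glucose of new glycans, at 0.68 ± 0.01. ER translocation, signal peptidase and glycosylation genes (17 measured) had a median of 0.30, with 12 above 0 on both arrays. Ssr4, of the translocon-associated complex, was the 1 called (5.88%), at 0.71 ± 0.04. Together 25 of these 36 ER genes (69.4%) were above 0 on both arrays, where all genes gave 30.3%. For the sensors and transcription factors that start the unfolded protein response, 4 were measured and their median was -0.04. Xbp1, which drives ER expansion in secretory cells, gave 0.84 and 1.03, past 1.5-fold on each array. Eif2ak3 (PERK) gave 0.09 and 0.13, Atf6b -0.11 and -0.25, and Creb3l4 opposite signs (1.58 and -2.84).

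The counterparts of the cytosol and mitochondria had medians near 0. For 16 heat shock factor and co-chaperone genes the median was -0.05 and 2 (12.5%) were above 0 on both arrays. The 7 mitochondrial folding and import genes had a median of -0.07 with 0 above 0 on both arrays. None of either list was called, where all genes gave 7.83% higher and 2.93% lower; in lists this short that is little apart from the background. In these lists too, then, the ER genes had the higher median.

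**Figure D4:**
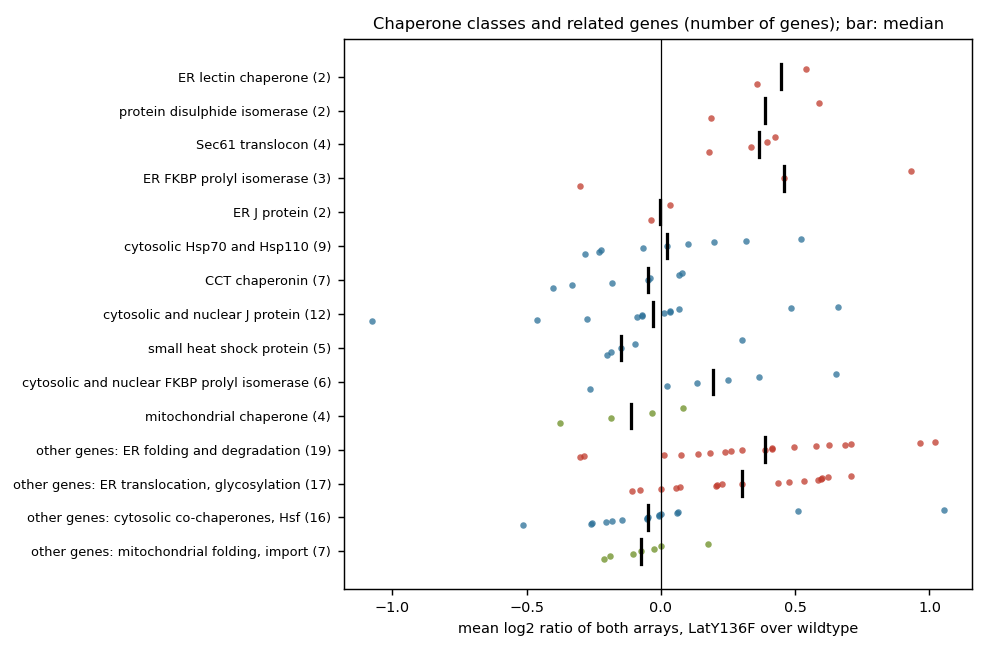
Mean log2 ratio of both arrays for each gene (points), with medians as bars. Shown are the member classes with over 1 gene, except the stress transcription factors, and 4 lists of related genes outside the naming rule. The ER lists outside the rule have medians of 0.39 and 0.30, and the cytosolic and mitochondrial ones -0.05 and -0.07.

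Markers of other cell types are given against the same shares of all genes, 7.83% called higher and 2.93% lower. Of 8 measured plasma cell markers, 5 were called higher. These were Jchain (1.15 ± 0.26), Prdm1 (1.22), Irf4 (1.22), Igkc (0.81) and Xbp1, which the list of sensors and transcription factors also holds. The 2 called lower were Igha (-2.37) and Ighm (-1.91), and Tnfrsf17 (0.21) was not called. The 8 plasma cell markers had a median of 0.87, with means from -2.37 to 1.22. Of 17 monocyte and macrophage markers, 12 were higher by this rule and 0 lower (median 1.23, from -0.45 to 2.73). Neutrophil markers had 3 of 7 higher (median 1.02, from 0.16 to 3.62) and erythroid markers 2 of 5 (median 0.84, from 0.13 to 2.42). B cell markers had 8 of 14 lower and 0 higher (median -1.07, from -2.29 to 0.63). T cell markers had 1 of 12 higher (8.33%, close to the share of all genes; median -0.05, from -0.88 to 0.81). Plasma cells are known for high expression of ER chaperones. The part of plasma cells, or of the T cells themselves, in the ER ratios and in these markers was not tested.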

How the data were processed

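The authors deposited log10 ratios of 8014 probes on each array, all filled. The log base was inferred from a highest value of exactly 2, a 100-fold limit. Background correction, normalization and direction are not given in the sources used. Column medians were -0.0033 and 0.0070. Array 2 was multiplied by -1 because its label gives the opposite polarity and names wildtype and LatY136F cells in the reverse order. The deposited columns correlated at -0.21 over all probes. Values were multiplied by 3.32 for log2, centred on each array's median, and probes of a gene averaged. The platform annotation gave 4654 probes 1 symbol, 73 several and 3287 none; only the first were used. All 62 members matched the RefSeq gene table (GRCm38.p6) by identifier and symbol.

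A gene was called when at least 1.5-fold (or 2-fold) from 0 with 1 sign on each array. No test was made, as the pair is 1 biological comparison. Members, lists and thresholds were chosen with earlier results of these data known. Named were all called members, core genes of each class, and the members furthest from 0; the other genes of a class complete it. Il6, Lipa, Herpud1, Selenok, Phgdh, Atf3, Atf6b, Creb3l4, Prdm1, Irf4, Igkc and Tnfrsf17 were named after their values were seen. The planned check of protein endings was not run, as no protein sequences were used here. Python 3.11, pandas 2.3.3 and numpy 2.4.6 were used. Alternatives are given in the closing section. The number of arrays limits the precision.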

Additional observations from a re-analysis of the deposited data

How the results depend on the processing

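Over 10 alternatives other than the turned sign, the difference between the ER and cytosolic medians was above 0 in 10. Not all of these could turn its sign, so the count is no measure of robustness. Centring cancels in a difference, reading as log2 only rescales it, and no member had a probe at exactly 0. The difference was 0.40 to 0.51 on single arrays, 0.11 with values read as log2 and -0.37 with both signs turned. The ER median was 0.31 to 0.48 on single arrays, 0.11 as log2 and -0.36 turned. The cytosolic median lay between -0.089 and -0.038 on single arrays, at 0.014 turned, 0.003 with probes as unit and -0.058 without FKBP and Sec61 genes. The 3 members at least 1.5-fold higher became 8 on either array alone and 7 at a log2 threshold of 0.32 (with Calr, Hspa5, Pdia3 and Sec61b). They became 4 with the strongest probe of each gene (with Hsp90b1) and 4 by the mean (with Pdia3). At 2-fold, at 3-fold, as log2 or turned there were 0. The 0 lower became 1 to 3 on single arrays, 1 without centring or by the mean (Dnajc27), 2 at 0.32 (with Hspe1) and 3 turned. At 2-fold, single arrays gave 1 to 2 higher and 0 to 1 lower. Array 1 or 2 alone calls more because 1 array then suffices. Turning the sign put Fkbp2 at -0.93, Dnajb6 at -0.66 and Fkbp1b at -0.65. Defining the ER set by protein endings was not run. No paired analysis was possible because there is only 1 comparison, of which the arrays are a dye reversal. Without intensities, which ratios rest on dim probes is unknown.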
